A study of Mus musculus with 3 samples.

Results

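The genes described are 42 components of the cell cycle engine, chosen by symbol: cyclins, cyclin-dependent kinases (CDKs) and their inhibitors, the retinoblastoma (pocket) proteins, the E2F transcription factors, replication factors, and the kinases, phosphatases and Cdc20 of G2 and mitosis. They are 42 of the 17633 genes listed in an RNA-seq profile of the 3 germ layers (endoderm, mesoderm, epiblast) of ICR mouse embryos at E7.5. Embryos of this stage are gastrulating, and the 3 germ layers were separated with enzymes and needles from the embryonic region, so that the epiblast sample also takes in the neuroectoderm and primitive streak. No sample was treated or genetically altered. RNA was pooled over many embryos and sequenced as 1 library per germ layer, so a difference between layers has no replicate check, and every interval here covers counting error only.

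Progress through the cell cycle is driven by CDKs, whose activity depends on cyclins that are made and destroyed in turn. D cyclins with Cdk4 and Cdk6 begin, and cyclin E with Cdk2 completes, the inactivation of the pocket proteins, which releases E2F factors to transcribe the genes of DNA replication. Cyclin A and cyclin B with Cdk1 then carry cells through S phase and into mitosis, and the gastrulating mouse embryo is known for some of the fastest cell cycles in mammalian development.

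The libraries held 41.7 M (endoderm), 40.8 M (mesoderm) and 42.7 M (epiblast) reads counted on genes. Levels are given as RPKM, the reads of a gene scaled to its length and to the reads of the library. All 7 endoderm markers examined were highest in endoderm, all 7 mesoderm markers in mesoderm and 6 of 7 epiblast markers in epiblast, the exception being *Fgf5* with an RPKM of 6.64 in endoderm and 6.32 in epiblast. Mesoderm markers summed to an RPKM of 23.9 (endoderm), 517 (mesoderm) and 115 (epiblast). The endoderm markers, which include *Afp*, *Ttr* and *Apoa1* of the visceral endoderm, summed to 4136, 51.9 and 4.89. Trophoblast markers summed to 55.3, 35.5 and 54.2 over the 6 of 9 listed genes, with the placental genes *Tpbpa*, *Prl3d1* and *Prl2c2* not listed. The near-equal endoderm and epiblast sums came from different genes. *Cdx2* and *Eomes* stood at 37.1 and 14.5 in epiblast, and at 18.4 and 9.51 in endoderm. *Plac1* and *Esx1* stood at 19.9 and 7.11 in endoderm, but at 0.569 and 0.130 in epiblast. Primitive erythroid markers summed to 3.39, 4.44 and 0.987 over 4 of 6 genes, without *Hba-x* and *Hbb-y*, which were not listed, and decidua markers to 0.860, 31.9 and 4.29 over 3 of 5, without *Prl8a2* and *Prl3c1*. Of the decidua sum in mesoderm, 26.2 was *Hand2*, a gene also known in embryonic mesoderm. The part of such cells in the differences below was not tested, and in bulk RNA fewer cells of a type and less RNA per cell cannot be told apart.

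All 42 genes had reads in all 3 libraries, from 2 to 32068 reads. Most were abundant: 37 exceeded an RPKM of 5 in at least 1 library, and the 5 that did not were *Cdk6*, *Cdkn2c*, *Rb1*, *Rbl2* and *E2f2*. As the plot of levels by role shows, the endoderm library was the low one for most of them. Of the 37 genes above RPKM 5, 29 (78.4%) were lowest in endoderm, against 48.0% of the 9135 genes of the whole table that passed the same filter. The commonest order was epiblast, then mesoderm, then endoderm, held by 17 genes (45.9%, against 26.2% of all genes). Every replication factor was among these 17, as were *Ccne1*, *Cdc25a*, *E2f4*, *Ccnb1*, *Ccnb2*, *Cdk1*, *Cdc25b*, *Plk1*, *Aurka* and *Aurkb*. A further 12 genes (32.4%, against 21.8%) ran mesoderm, epiblast, endoderm, among them *Ccnd1*, *Ccnd2*, *Cdk4* and *E2f1*. Endoderm was highest for 5 genes only, namely *Ccnd3*, *Cdk2*, *Rbl1*, *E2f8* and *Wee1*. Under 4 other scalings of the libraries, 27 to 31 of the 37 genes (73.0% to 83.8%) were lowest in endoderm, against 41.6% to 53.4% of all genes. The ratios whose sign a scaling turned were all within 0.13 of 0 on the log2 scale, among them those of *Ccnd3*, *Ccne2*, *Rbl1* and *E2f4* between endoderm and mesoderm.

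**Figure D1:**
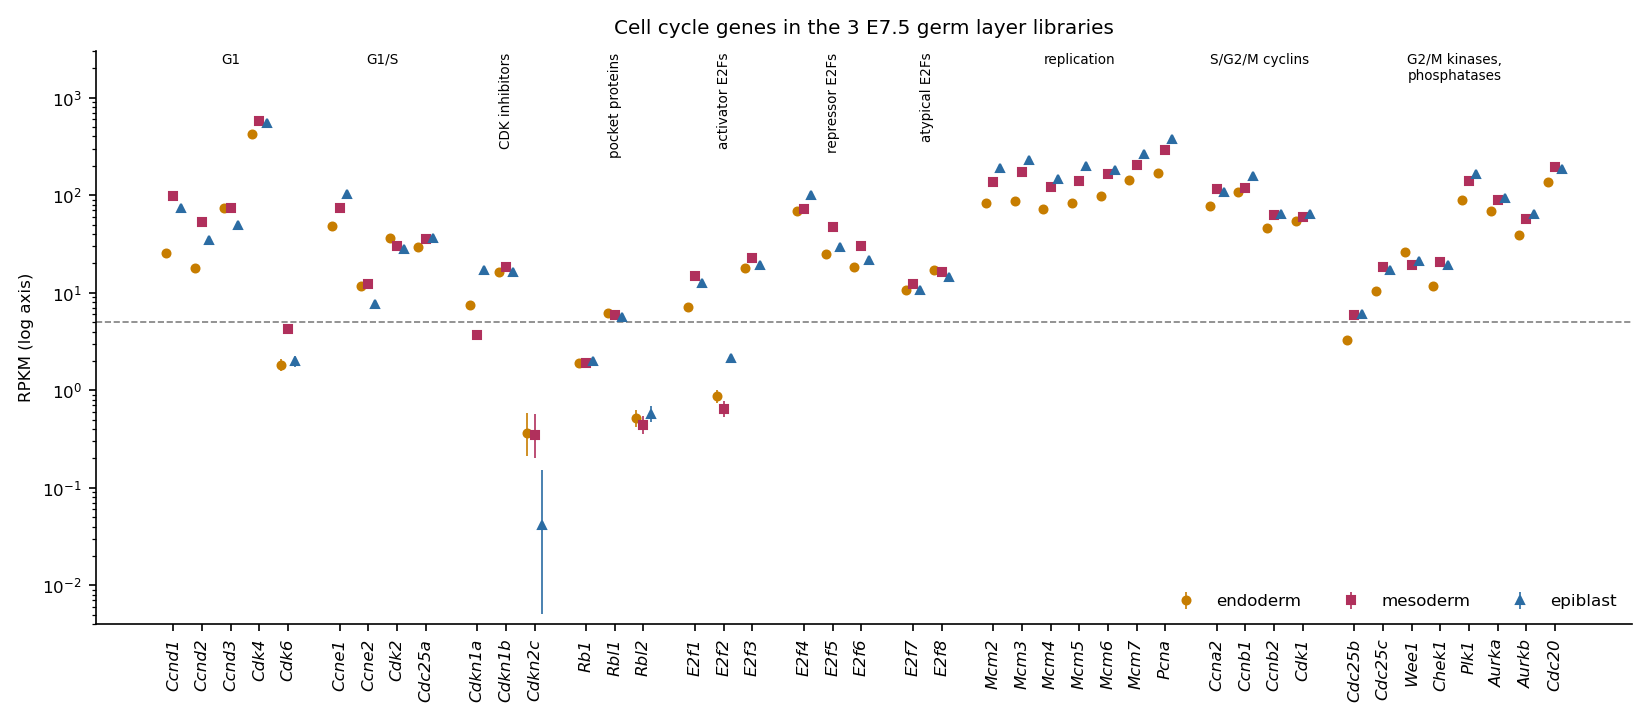
RPKM (log axis) of the 42 cell cycle genes in the endoderm, mesoderm and epiblast libraries, grouped by role, with 95% Poisson counting intervals as vertical lines and the RPKM of 5 as a dashed line. The endoderm points lie lowest for all 7 replication factors, whereas the points of *Rb1* lie together near 2.

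A gene was called differentially expressed between a pair of libraries when its RPKM exceeded 5 in at least 1 of them, the fold exceeded 2 and the FDR was below 0.001. The FDR is the Benjamini-Hochberg adjusted p of an exact two-sided Audic and Claverie test of the reads. At this depth the fold decides almost every call, and the test compares the libraries rather than germ layers as replicated conditions. Of the 42 genes, 10 were called in at least 1 pair: *Ccnd1*, *Ccnd2*, *Ccne1*, *Cdkn1a*, *E2f1*, *Mcm2*, *Mcm3*, *Mcm4*, *Mcm5* and *Pcna*. They are 27.0% of the 37 genes above RPKM 5, against 31.5% of the 9135 such genes of the whole table. *Cdkn1a* was called in all 3 pairs, *Ccnd1* in 2 and the other 8 in 1 pair each, while 32 were called in none. The 3 pairs share libraries, so their counts are not independent of each other.

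Between endoderm and mesoderm, *Ccnd1*, *Ccnd2* and *E2f1* were called higher in mesoderm, which is 3 of 37 genes (8.11%), against 8.56% of the 8867 genes tested. *Cdkn1a* alone was called higher in endoderm (2.70%, against 14.4%). In either direction 10.8% of the cell cycle genes were called, against 23% of all genes, so that their share of calls was below the background. With a fold of 1.5 as the limit and no test, 16 genes (43.2%) were higher in mesoderm, against 18.2% of all genes, and 1 gene (2.70%) was higher in endoderm, against 21.8%. Over the 37 genes the log2 ratio had a median of -0.51, against -0.10 over all genes tested. Genes near the limit were *Cdkn1a*, at 2.02-fold just inside, and *Mcm3*, at 1.99-fold just outside. Scaling the libraries to the same upper quartile left 0 genes called higher in endoderm and 5 in mesoderm, because *Cdkn1a* was lost and *E2f5* and *Mcm3* were added. Scaling by the median of ratios, TMM or the RPKM total lost *E2f1*.

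Between endoderm and epiblast, 8 genes were called, all higher in epiblast: *Ccnd1*, *Ccne1*, *Cdkn1a*, *Mcm2*, *Mcm3*, *Mcm4*, *Mcm5* and *Pcna*. They are 21.6% of the 37 genes, against 8.94% of the 8843 genes tested. No cell cycle gene was called higher in endoderm, where 15.7% of all genes were. At a fold of 1.5, 17 genes (45.9%) were higher in epiblast, against 20.1%, and *Ccnd3* and *Ccne2* were higher in endoderm (5.41%, against 24.3%). Here the median log2 ratio was -0.54 for the 37 genes and -0.08 for all genes tested. *Mcm4* lay just inside the limit at 2.03-fold and *Ccnd2* just outside at 1.95-fold. *Ccne1* and *Mcm4* were lost under the median of ratios, TMM and the RPKM total, and the same upper quartile raised the count to 13 by adding *Ccnd2*, *Cdc25b*, *Mcm6*, *Mcm7* and *Plk1*.

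Mesoderm and epiblast were close to each other. Only *Cdkn1a* was called, higher in epiblast (2.70% of 37 genes, against 5.02% of the 8340 tested). Higher in mesoderm, 0 genes met the criteria, against 5.3%. The fold limit rather than the test kept *Ccnd2*, *Ccne2* and *E2f5* out. At a fold of 1.5, *Ccnd2*, *Ccne2* and *E2f5* were higher in mesoderm (8.11%, against 10.2%) and *Cdkn1a* higher in epiblast (2.70%, against 8.59%). The median log2 ratio of mesoderm to epiblast was -0.01 over the 37 genes and 0.02 over all genes. After *Cdkn1a* at 4.69-fold, the next gene was *Ccne2* at 1.62-fold. The plot of cumulative shares sets the 37 genes beside all genes: 83.8% of them had a ratio below 0 on the log2 scale for endoderm against mesoderm (56.0% of all genes), 81.1% against epiblast (54.0%) and 51.4% for mesoderm against epiblast (47.3%).

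**Figure D2:**
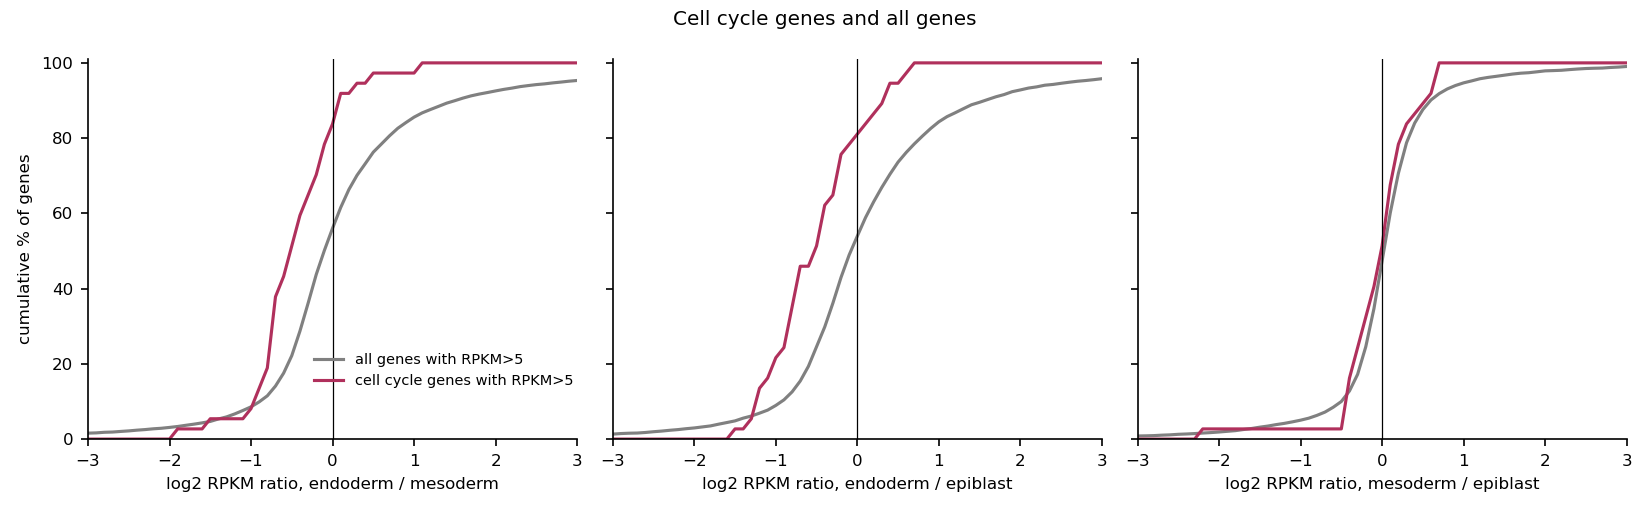
Cumulative percent of genes (vertical axis) at or below each log2 RPKM ratio (horizontal axis) for the 3 pairs of libraries, with the cell cycle genes in red and all genes with RPKM>5 in grey. The red curve lies left of the grey one around 0 in both pairs that include endoderm (83.8% and 81.1% of cell cycle genes below 0) and close to it for mesoderm against epiblast (51.4%).

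**Figure D3:**
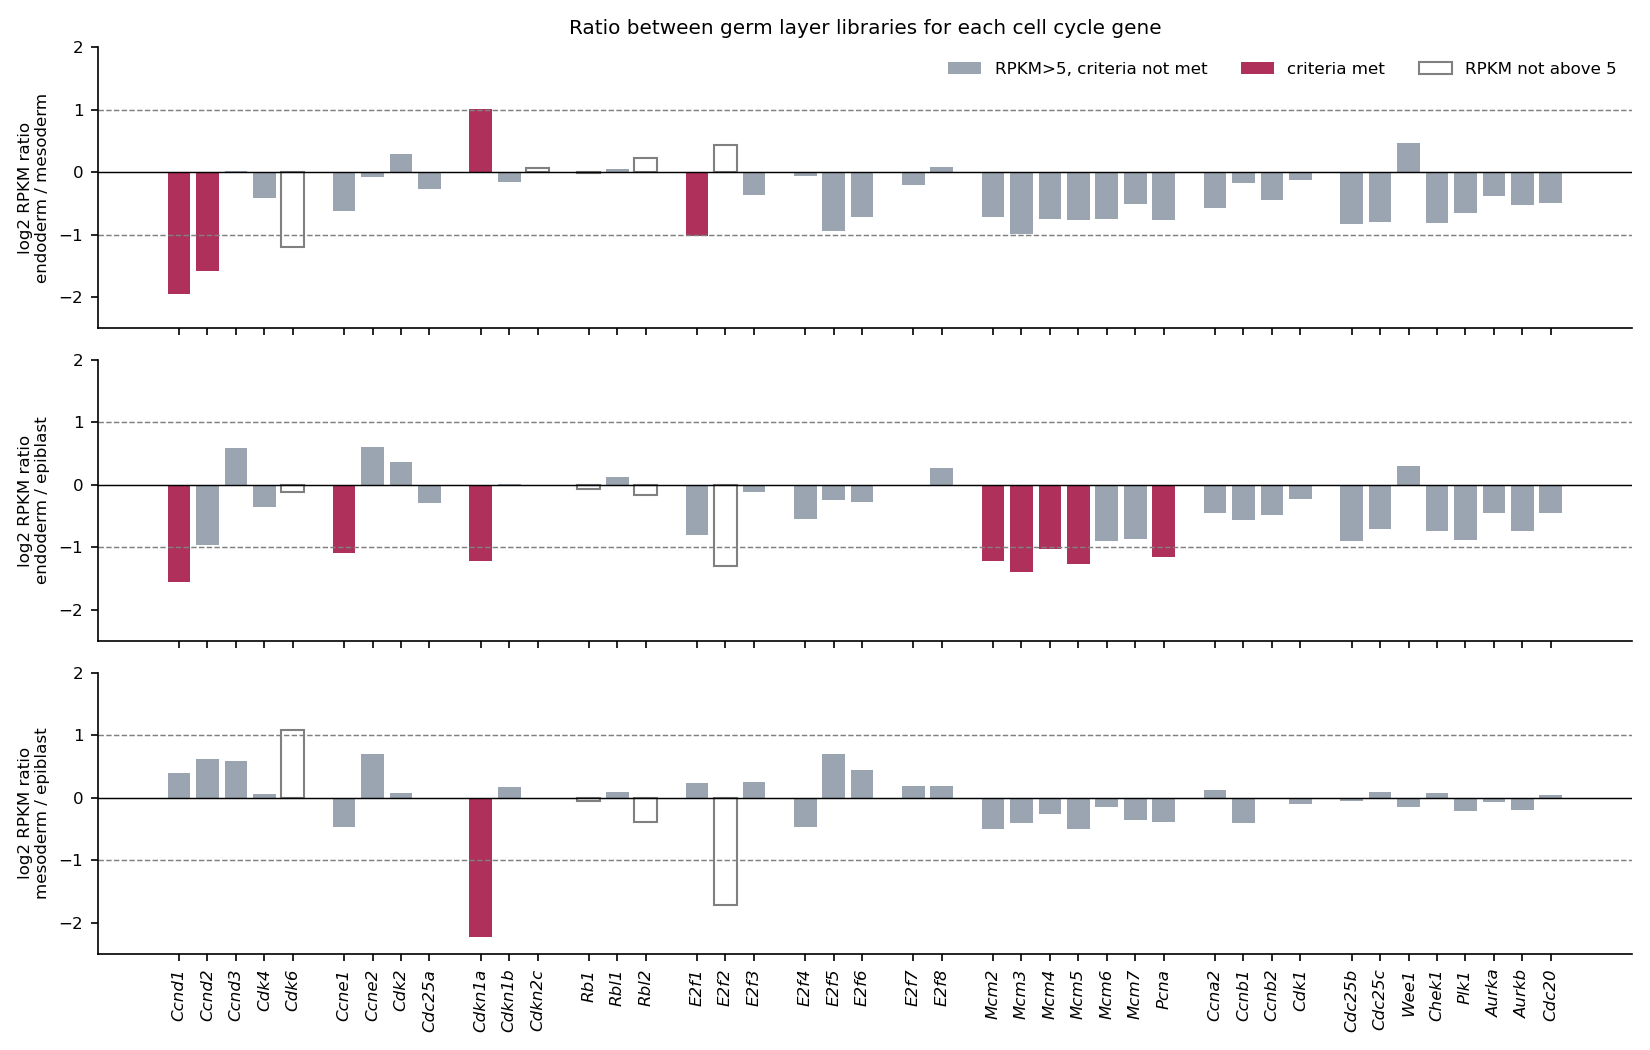
log2 RPKM ratio of each cell cycle gene for endoderm against mesoderm, endoderm against epiblast and mesoderm against epiblast, with dashed lines at a fold of 2. Filled red bars met the criteria (4, 8 and 1 genes), grey bars did not, open bars had no RPKM above 5, and *Cdkn2c* has no bar against epiblast, where it had 2 reads.

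The D cyclins, the mitogen-responsive partners of Cdk4 and Cdk6 in G1, did not share one pattern. Positions are those of GRCm38. *Ccnd1* (cyclin D1; chr7:144929931-144939925) stood at 25.5 RPKM in endoderm and at 98.3 and 74.6 in mesoderm and epiblast, from 4036, 15240 and 12091 reads. Mesoderm exceeded endoderm 3.85-fold (95% counting interval 3.72 to 3.99), and epiblast exceeded endoderm 2.92-fold (2.82 to 3.03), and both differences were called. *Ccnd2* (cyclin D2; chr6:127125162-127152193) stood at 17.8, 53.4 and 34.7 from 4276, 12581 and 8542 reads. Its mesoderm value exceeded that of endoderm 3.0-fold (2.90 to 3.11), whereas the mesoderm to epiblast ratio was 1.54. *Ccnd3* (cyclin D3) had the other pattern, with 74.1 RPKM in endoderm, a like 73.2 in mesoderm, but 49.0 in epiblast. Cyclin D3 therefore made up 63.1% of the summed D cyclin RPKM in endoderm, against 32.6% in mesoderm and 31.0% in epiblast, and *Ccnd1* made up 21.7%, 43.7% and 47.1%. The 3 genes summed to 117 (endoderm), 225 (mesoderm) and 158 (epiblast). By reads that were not divided by gene length *Ccnd3* was again the largest in endoderm, at 44.2% of D cyclin reads, and *Ccnd2* took 28.7%. In mesoderm and epiblast, however, *Ccnd3* was the smallest by reads, at 18.6% and 17.8%, whereas by RPKM *Ccnd2* was. Exons of *Ccnd1*, *Ccnd2* and *Cdkn1a*, and of 16 other cell cycle genes, overlap those of neighbouring genes, in all but *Mcm7* on the opposite strand.

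*Cdk4*, a catalytic partner of the D cyclins, was the most abundant of the 42 genes by RPKM, at 429 (endoderm), 572 (mesoderm) and 550.1 (epiblast). Its relative *Cdk6* stood at 1.83, 4.20 and 1.98, so that *Cdk4* made up over 99% of the pair in each layer (99.6%, 99.3% and 99.6%). The *Cdk6* value in mesoderm was 2.30 times that in endoderm but stayed under the RPKM minimum. The mesoderm to epiblast ratio of *Cdk4*, 0.06 on the log2 scale, turned sign when the upper quartiles were matched.

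*Ccne1* (cyclin E1; chr7:38097984-38107534) activates Cdk2 at the entry to S phase. Its level went from 48.5 RPKM in endoderm through 74.7 in mesoderm to 103 in epiblast, on 4087, 6168 and 8913 reads, and epiblast exceeded endoderm 2.13-fold (2.05 to 2.21). *Ccne2* (cyclin E2) had 11.6, 12.3 and 7.61, and so was lowest in epiblast, where *Ccne1* was highest. The share of *Ccne1* in the E cyclin sum was thus 80.7%, 85.8% and 93.1%. Reads of *Ccne2* covered 51.0% of its length in endoderm and 54.5% in epiblast, although genes with a like number of reads had a median coverage of 97.1% and 96.3%, and its exons overlap those of *Ints8* on the other strand. Whether the counting used strand is not given in the sources used here, so the *Ccne2* value may hold reads of its neighbour. *Cdk2*, the kinase of the E cyclins, had an RPKM of 36.6, 29.8 and 28.3. *Cdc25a*, the phosphatase that activates Cdk2, had 29.4, 35.6 and 36.0. Neither was called in any pair.

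**Figure D4:**
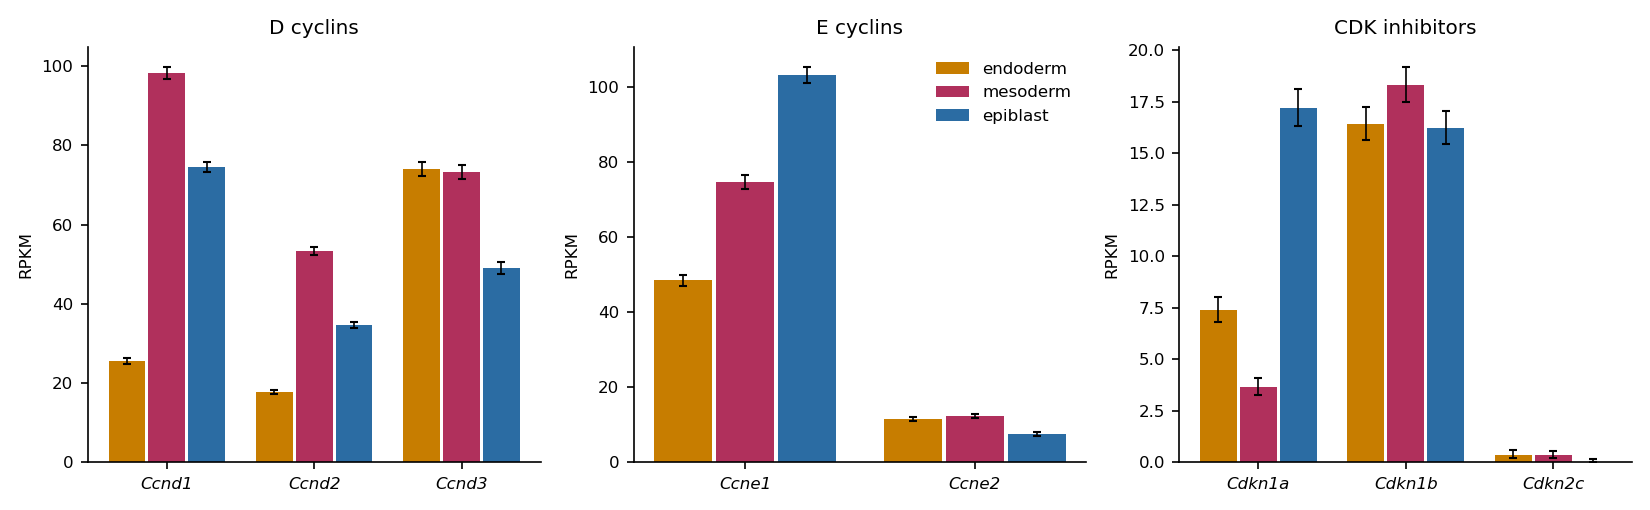
RPKM (bars from 0) of the D cyclins, the E cyclins and 3 CDK inhibitors in the endoderm, mesoderm and epiblast libraries, with 95% Poisson counting intervals. *Ccnd3* is the tallest D cyclin in endoderm (74.1), *Ccnd1* in mesoderm (98.3) and epiblast (74.6), and *Cdkn1a* spans 3.67 to 17.2.

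*Cdkn1a* encodes p21, an inhibitor of cyclin-CDK complexes and a well-known p53 target, and lies at chr17:29090976-29100727. It was the only gene called in every pair, at 7.42 RPKM (endoderm), 3.67 (mesoderm) and 17.2 (epiblast), from 598, 290 and 1423 reads. Epiblast exceeded mesoderm 4.69-fold (4.13 to 5.34) and endoderm 2.32-fold (2.11 to 2.56). Endoderm exceeded mesoderm 2.02-fold (1.75 to 2.33), an interval that includes a fold of 2. *Cdkn1b* (p27) differed little, at 16.4, 18.3 and 16.2. *Cdkn2c* (p18, an inhibitor of Cdk4 and Cdk6) was scarce, with 17, 16 and 2 reads and an RPKM of 0.365, 0.350 and 0.042. Of the sum of these 3 inhibitors *Cdkn1a* made up 30.6%, 16.4% and 51.4%.

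The pocket proteins, which hold E2F factors in check until CDKs phosphorylate them, were low and even. *Rb1* showed 1.89, 1.91 and 1.99 RPKM, the narrowest range of the 42 genes (1.05-fold between highest and lowest). *Rbl1* (p107) had 6.13, 5.95 and 5.61, and *Rbl2* (p130, typical of resting cells) had 0.515, 0.440 and 0.574. *Rbl1* was the main transcript of the family in each library, with 71.8%, 71.6% and 68.7% of the summed RPKM. None was called, and only *Rbl1* exceeded an RPKM of 5. For *Rb1* the direction turned with the scaling in all 3 pairs.

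Among the activator E2Fs, *E2f1* (chr2:154559407-154569892) reached 7.20 RPKM in endoderm, against 14.7 in mesoderm and 12.5 in epiblast, from 738, 1477 and 1315 reads. Mesoderm exceeded endoderm 2.04-fold (1.87 to 2.23), a call that scaling by the median of ratios, TMM or the RPKM total ended. *E2f3* was the most abundant activator in each library, at 17.8, 22.9 and 19.2. *E2f2* was the least, at 0.870, 0.645 and 2.13. Its epiblast value was 3.3 times that of mesoderm but below the RPKM minimum.

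The repressor E2Fs were more abundant than the activators. *E2f4*, which acts with the pocket proteins, had 68.2, 71.5 and 99.3, and *E2f5* had 24.8, 47.3 and 29.3. *E2f6*, which represses without pocket proteins, had 18.2, 29.8 and 21.9. In mesoderm *E2f4* made up 48.1% of the summed RPKM of these 3, against 61.4% in endoderm and 66.0% in epiblast, and *E2f5* made up 31.9%, 22.3% and 19.5%. The atypical E2Fs, which repress replication genes late in S phase, were nearly level, with *E2f7* at 10.6, 12.2 and 10.7 and *E2f8* at 17.3, 16.3 and 14.3. No repressor or atypical E2F met the criteria in any pair, the nearest being *E2f5* at 1.91-fold between mesoderm and endoderm.

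The replication factors shared one pattern. Mcm2 to Mcm7 are the subunits of the ring that unwinds DNA, and Pcna is the clamp that holds polymerases to it. All 7 genes ran epiblast, mesoderm, endoderm, and this held under each of the 4 other scalings. *Mcm3* (chr1:20802968-20820312) showed the widest span, at 86.6 RPKM (endoderm), 172 (mesoderm) and 228 (epiblast), from 10408, 20329 and 28105 reads, and epiblast exceeded endoderm 2.63-fold (2.58 to 2.69). *Mcm5* (chr8:75109569-75128439) had 82.7, 141 and 199, and its ratio of epiblast to endoderm was 2.41 (2.35 to 2.46). For *Mcm2* (chr6:88883474-88898780) the values were 83.0, 136 and 192, which is 2.32-fold (2.27 to 2.37). *Mcm4* (chr16:15623897-15637400) had 72.7, 122 and 147, and its 2.03-fold difference had an interval of 1.98 to 2.07, which includes 2. The clamp gene *Pcna* (chr2:132249162-132253314) had 169, 288 and 376, a 2.22-fold difference (2.16 to 2.27). *Mcm6*, at 97.8, 164 and 183, and *Mcm7*, at 144, 204 and 262, reached 1.87-fold and 1.83-fold and were not called.

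Relative to epiblast, the 7 genes stood at 38.0% (*Mcm3*) to 54.7% (*Mcm7*) in endoderm, with a median of 45.1%, and at 70.7% (*Mcm2*) to 89.9% (*Mcm6*) in mesoderm, with a median of 76.6%. Every one of the 7 was thus nearer to epiblast in mesoderm than in endoderm. The summed RPKM of the 6 helicase genes was 566, 939.8 and 1211 across endoderm, mesoderm and epiblast. Although the subunits sit in the ring in equal number, their transcripts were not equal. By RPKM *Mcm7* was highest and *Mcm4* lowest in each library, and the ratio between them was 1.98, 1.67 and 1.78. Without division by length, the ratio of the highest to the lowest subunit by reads was 1.38, 1.13 and 1.29, and the order changed. By reads *Mcm7* was highest and *Mcm3* lowest in endoderm, *Mcm3* highest in mesoderm and *Mcm5* highest in epiblast. Annotated *Mcm7* exons overlap the microRNA genes *Mir25* and *Mir93* on the same strand. Whether those exons belong to the coding transcript was not tested. *Pcna* has the named pseudogenes *Pcna-ps1* and *Pcna-ps2*, to which reads could be split.

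**Figure D5:**
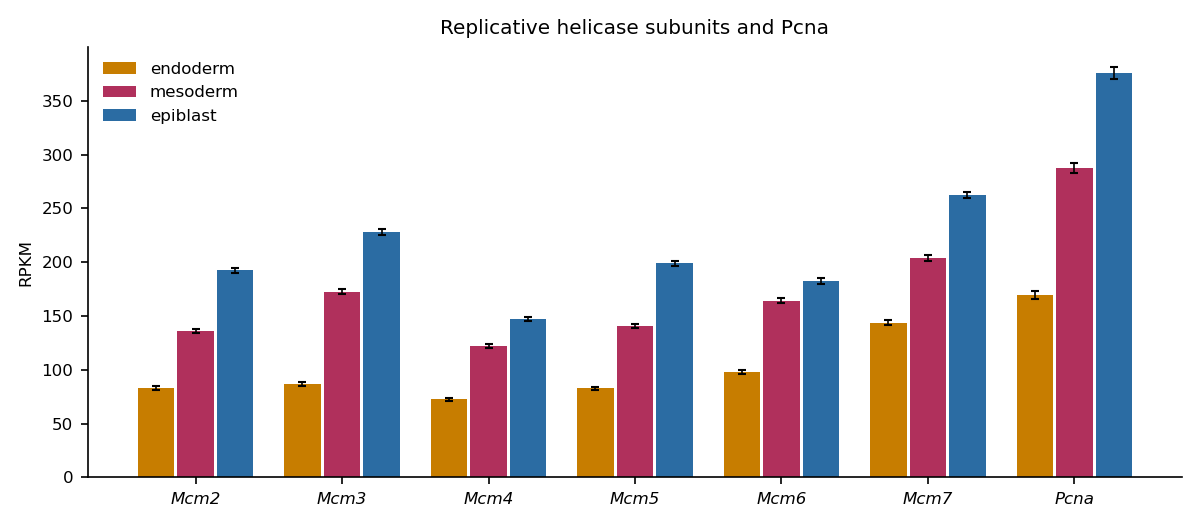
RPKM (bars from 0) of *Mcm2* to *Mcm7* and *Pcna* in the endoderm, mesoderm and epiblast libraries, with 95% Poisson counting intervals. Each gene is lowest in endoderm and highest in epiblast, from 72.7 for *Mcm4* in endoderm to 376 for *Pcna* in epiblast.

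To set sequence beside these levels, the promoters of the 42 genes were searched for the E2F words TTTCCCGC, TTTGGCGC, TTTCGCGC and TTTGCCGC, the CHR word TTTGAA found in many G2 and M genes, and CCAAT, on both strands. The windows were RefSeq promoters of GRCm38.p6, which run from 250 bases before to 50 after the start of a gene, and 31 of the 42 genes had 37 windows. Those not matched were *Ccnd1*, *Ccnd2*, *Ccne2*, *Ccna2*, *Mcm4*, *Wee1*, *E2f4*, *E2f5*, *Rb1*, *Cdc25c* and *Aurkb*. An E2F word stood in 11 of 37 windows (29.7%), against 2.26% of all 32851 RefSeq promoter windows. Those windows belonged to *Mcm3*, *Mcm5*, *Mcm6*, *Mcm7*, *Cdc25a*, *Cdk1*, *Cdk2*, *E2f2*, *E2f3*, *E2f7* and *Rbl1*. Of the 7 windows of replication factors, 4 held an E2F word and all 7 held CCAAT, which is in 37.4% of all windows. The 170 bases before the start are shown for the 2 replication factors with an E2F word there and the largest ratios, 5′ to 3′ on the strand of the gene, with E2F words and CCAAT, also where it is inverted, in capitals. In *Mcm5* TTTCGCGC overlaps an inverted TTTGGCGC by 4 bases at -153 to -142 from the start, and in *Mcm6* a like overlapping pair begins at -110 and a single TTTGGCGC at -47.
*Mcm5*, chr8:75109339-75109508, + strand: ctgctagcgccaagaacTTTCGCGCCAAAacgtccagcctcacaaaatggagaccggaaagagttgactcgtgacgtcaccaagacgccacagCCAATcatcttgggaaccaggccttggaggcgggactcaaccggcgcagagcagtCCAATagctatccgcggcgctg
*Mcm6*, chr1:128359706-128359875, - strand: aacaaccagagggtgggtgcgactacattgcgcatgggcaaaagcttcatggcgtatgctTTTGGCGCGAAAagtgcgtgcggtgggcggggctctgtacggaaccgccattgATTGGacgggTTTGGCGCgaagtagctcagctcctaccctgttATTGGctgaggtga

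Cyclins of S phase, G2 and mitosis were all lower in endoderm than in either other library. *Ccna2* (cyclin A2) stood at 78.4 RPKM in endoderm, and at 117 and 107 in mesoderm and epiblast. *Ccnb1* (cyclin B1) had 107, 120 and 158, and *Ccnb2* (cyclin B2) had 45.6, 62.5 and 63.7. Their kinase *Cdk1* was nearly level at 54.1, 59.1 and 63.6. None of these 4 genes reached a fold of 1.5 in any pair. For endoderm against epiblast their median log2 ratio was -0.47, and that of the replication factors -1.15. For endoderm against mesoderm these medians were -0.31 and -0.75, although *Ccna2*, at -0.57, lay beyond *Mcm7*, at -0.51. *Ccnb1* and *Ccnb2* have named pseudogenes, so a part of their reads may have been assigned elsewhere.

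Of the 8 regulators of mitotic entry and exit, 7 were lowest in endoderm and *Wee1* was highest there. *Plk1*, a kinase of mitotic entry and spindle assembly, had 88.9, 140.0 and 163, and *Cdc20*, which activates the anaphase-promoting complex, had 137, 193 and 187. The Aurora kinases of the spindle and of chromosome attachment had 68.2, 88.9 and 93.3 (*Aurka*) and 39.1, 56.4 and 64.9 (*Aurkb*). *Chek1*, the kinase of the replication checkpoint, had 11.7, 20.5 and 19.4. The Cdk1-activating phosphatases *Cdc25c* and *Cdc25b* had 10.5, 18.2 and 17.2, and 3.27, 5.84 and 6.08. *Wee1*, the kinase that holds Cdk1 inactive, stood at 26.3 RPKM in endoderm and 19.0 and 21.2 in the other two. Of the other 7, 5 were lower in endoderm than in epiblast by over 1.5-fold, as were 20.1% of all genes tested. The fold stayed below 2 for all 8 genes, so 0 of the 8 met the criteria in any pair. Of all genes tested, 23% were called for endoderm against mesoderm, 24.6% against epiblast and 10.3% for mesoderm against epiblast. Over the 8 genes the median log2 ratio was -0.59 for endoderm against mesoderm, -0.72 against epiblast and -0.06 for mesoderm against epiblast.

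The CHR word stood in 10 of the 37 windows (27.0%), against 17.9% of all promoter windows. They were those of *Aurka*, *Cdc20*, *Plk1*, *Ccnb2*, *Cdk1*, *Mcm2*, *E2f2*, *E2f3*, *E2f8* and *Rbl2*. Of the 5 windows of G2 and M kinases, phosphatases and *Cdc20*, 3 held it and 0 held an E2F word. Among the matched S, G2 and M cyclins, *Cdk1* and the G2 and M regulators, only *Cdc20*, *Ccnb2* and *Cdk1* had the word before the start. *Cdc20* and *Ccnb2* are shown as a contrast with *Mcm5* and *Mcm6*, again over 170 bases with TTTGAA and CCAAT in capitals. In *Cdc20* the word lies at -18 to -13, and in *Ccnb2* at -167 to -162. *Ccnb2* holds the word again at 5 to 10 after the start, outside the bases shown.
*Cdc20*, chr4:118437344-118437513, - strand: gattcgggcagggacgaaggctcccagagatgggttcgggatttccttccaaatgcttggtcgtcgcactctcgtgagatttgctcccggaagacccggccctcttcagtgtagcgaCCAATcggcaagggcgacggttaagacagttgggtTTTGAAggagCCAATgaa
*Ccnb2*, chr9:70421555-70421724, - strand: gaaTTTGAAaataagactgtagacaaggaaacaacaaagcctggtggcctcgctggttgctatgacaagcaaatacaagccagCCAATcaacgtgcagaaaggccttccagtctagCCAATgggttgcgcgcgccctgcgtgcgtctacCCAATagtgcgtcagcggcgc

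Lists of 122 other genes of the same processes were read in the same way, and 121 of them had reads (*Ticrr* was not listed). Over those tested, the median log2 ratio was -0.30 for endoderm against mesoderm, -0.37 against epiblast and -0.08 for mesoderm against epiblast, beside -0.10, -0.08 and 0.02 over all genes. In the licensing and origin firing list all 18 genes tested were below 0 for endoderm against mesoderm and 16 against epiblast (14 to 18 and 15 to 18 under other scalings), with 1 called in each of these pairs (5.56%, against 8.56% and 8.94% of all genes in that direction). For mesoderm against epiblast 12 of the 18 were below 0, whereas all 7 replication factors were, and the medians were -0.11 and -0.38. Those called were *Gins3*, a subunit of the active helicase, at 4.72, 9.87 and 9.21, and *Wdhd1*, a replisome adaptor, at 16.9, 29.6 and 33.9. Of 20 genes of DNA synthesis and nucleotide supply, 20 were below 0 for endoderm against epiblast (19 or 20 under other scalings), and 2 were called in each pair with endoderm (10%, against 8.56% and 8.94% of all genes in that direction). *Pold1*, the catalytic subunit of polymerase delta, had 18.5, 40.0 and 52.7 and was called in both pairs. *Rrm2*, of ribonucleotide reductase, had 91.9, 193 and 181, and *Rfc3*, of the clamp loader, had 27.4, 47.2 and 59.0. In the lists of DREAM and E2F partners (9 genes, 8 or 9 tested) and mitosis (25), no gene met the criteria in any pair. The same held for other cyclins and kinases (12, of which 10 were tested) and ubiquitin ligases (18). Over all genes tested, 23% (endoderm against mesoderm), 24.6% (endoderm against epiblast) and 10.3% (mesoderm against epiblast) were called in either direction.

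The list of 5 other CDK inhibitors ran against most cell cycle genes in direction. Of 4 genes tested, 0 were below 0 for endoderm against mesoderm and 1 against epiblast. Only 1 of the 4 was over 1.5-fold higher in endoderm than in mesoderm, and 3 were against epiblast. Called higher in endoderm were 1 gene against mesoderm (25%, against 14.4% of all genes) and 2 against epiblast (50%, against 15.7%). *Cdkn1c* (p57) stood at 89.1 RPKM in endoderm and 76.7 in mesoderm, but 9.60 in epiblast, from 7243, 6114 and 800 reads. Its endoderm and mesoderm values exceeded epiblast 9.28-fold and 7.99-fold. *Cdkn2a*, which encodes p16 and p19Arf, had 21.1, 0.264 and 1.16 from 816, 10 and 46 reads, and endoderm exceeded mesoderm 80.0-fold (43.3 to 168) and epiblast 18.2-fold (13.5 to 25.0). In the list of p53 and its targets (15 genes besides *Cdkn1a*), 3 of 11 genes tested were called between endoderm and mesoderm (27.3%, against 23% of all genes), 4 of 13 between endoderm and epiblast (30.8%, against 24.6%) and 2 of 12 between mesoderm and epiblast (16.7%, against 10.3%). The 3 with the widest folds were *Pmaip1* (Noxa), at 2.66, 7.11 and 20.3, *Trp53inp1*, at 7.04, 1.88 and 3.85, and *Zmat3*, at 2.04, 3.33 and 6.54. *Pmaip1* and *Zmat3* were highest in epiblast, as *Cdkn1a* was, whereas *Trp53inp1* was highest in endoderm.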

How the data were processed

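The authors sequenced RNA of 3 germ layers of ICR embryos, 1 paired-end library each. After trimming and quality filtering they deposited, per gene, a count of uniquely mapped reads that is not normalized. The deposited RPKM equals reads divided by gene length and total reads on genes (largest relative difference 2.03e-07). The deposited coverage is a percent of gene length. The submitters' processing notes list TopHat, mm10 and mm9 without a role, and the aligner and annotation of the gene table are not given in the sources used here.

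The 42 genes, their roles and the lists of other genes were chosen with earlier results of these data known. All 42 are described by role, with reads and intervals for those called, and at most 3 called genes of each other list, taken by fold. The criteria RPKM>5, fold above 2 and FDR below 0.001 follow the study. The FDR was computed with an exact Audic and Claverie test over genes with a read in either library (Python 3.11.15, SciPy 1.17.1), and was tested on simulated data. Ratio intervals are Clopper-Pearson and RPKM intervals Poisson, at 95%. PCR copies are not independent molecules, so they cover counting error only. With 1 library per layer, the quasi-likelihood test of edgeR could not be fitted. edgeR 4.0.16 with a preset biological variation (0.2 or 0.4) was tried as an alternative, beside other scalings, limits and pseudocounts. Positions are from GENCODE M21 (GRCm38) and promoters from RefSeq (GRCm38.p6), of which a gene can have more than 1. 1 marker gene is not reported here.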

Additional observations from a re-analysis of the deposited data

How the results depend on the processing

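No paired analysis was possible because each germ layer has 1 library, and no library could be left out for the same reason. The number of cell cycle genes called between endoderm and mesoderm, 4, became 0 with a fold above 4, 2 with a pseudocount of 1 RPKM, and 1 and 0 with edgeR at a preset biological variation of 0.2 and 0.4. Between endoderm and epiblast, 8 calls became 0 with a fold above 4 and 0 with edgeR at either preset, and 13 after scaling to the same upper quartile. The call between mesoderm and epiblast, 1, became 3 with an RPKM minimum of 1 and 3 with none, where *Cdk6* and *E2f2* were added, and 0 with edgeR at 0.4. The fewer calls with edgeR or a wider fold follow from the construction of those settings. *Ccnd1* between endoderm and mesoderm and *Cdkn1a* between mesoderm and epiblast were the calls that edgeR kept at 0.2.

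The median log2 ratio of the cell cycle genes for endoderm against mesoderm, -0.51, became -0.47 with no RPKM minimum (for the medians a setting chosen after seeing the data), -0.39 with the median of ratios, -0.40 with TMM, -0.58 with the same upper quartile and -0.47 with the same RPKM total. For endoderm against epiblast, -0.54 became -0.47, -0.43, -0.43, -0.68 and -0.45 in the same order. For mesoderm against epiblast, -0.01 became -0.080 with the same upper quartile and reversed to 0.041 with the same RPKM total. The median of all genes moved by 0.12 under the median of ratios and TMM in both pairs with endoderm, and by -0.15 under the upper quartile for endoderm against epiblast. Relative to it the cell cycle genes stayed between -0.41 and -0.40, between -0.48 and -0.45, and at -0.03. Another 64 values kept their direction and stayed within the limits set for a change, and 12 shares and ratios within families moved when reads were not divided by gene length.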
